A study of Mus musculus with 8 samples.

Results

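The core circadian clock genes are the 10 genes Arntl (Bmal1), Clock, Npas2, Per1, Per2, Per3, Cry1, Cry2, Nr1d1 and Nr1d2, found by symbol among the 37315 genes counted in each mouse. All 10 passed the filter on low counts, as did 14788 genes in all. They were measured by RNA-seq in hippocampal CA1 tissue dissected from 8 Cas9 mice after stereotaxic injection of AAV, an adeno-associated virus, encoding an sgRNA. The sgRNA targeted SIK3 in 2 males and 2 females (KO) and was a control sgRNA in another 2 males and 2 females. All 8 mice therefore carried Cas9 and received a virus. Each mouse gave 1 library, and the numbers 1 to 4 within a group only name mice. Controls 1 and 3 and KO 1 and 2 were male, and controls 2 and 4 and KO 3 and 4 were female. Strain, age, the promoter of Cas9, the place of the guide in Sik3, the share of cells reached by the virus and the time of day of dissection were not stated in those labels.

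The circadian clock is a loop of transcription and translation that runs in most cells. BMAL1 pairs with CLOCK, or in forebrain with its paralog NPAS2, and the pair binds E-boxes near the genes of its own repressors, the PER and CRY proteins. The pair also drives Nr1d1 and Nr1d2, whose products REV-ERB alpha and REV-ERB beta repress Arntl. Transcripts of the Per genes, Nr1d1 and Nr1d2 peak at roughly the opposite phase of the day to that of Arntl in many tissues. That of Cry1 peaks later than those of the Per genes. Per1 is in addition an activity gene in neurons that responds to cAMP and CREB. SIK3, the kinase targeted here, is known as a regulator of the CREB coactivators CRTC and of sleep.

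Promoter windows from RefSeq on GRCm38.p6, from 250 bases before to 50 bases after a start site, were matched for 9 of the 10 genes, with 13 windows in all. The stretches shown hold letters that match short elements known from the loop. Capitals mark the elements named in the sentences that follow, the bases run 5′ to 3′ on the gene's strand, and every stretch lies before the start site. The E-box CACGTG of Per1 lies 166 bases before the start; the same stretch also holds AGGTCA, read on the other strand 137 bases before the start and left in lower case. In Cry1 the E-box lies 60 bases and the related element CACGTT, read on the other strand, 79 bases before the start. In Nr1d1 the element CACGTT is also read on the other strand. Nr1d2 holds the half-site AGGTCA that ROR and REV-ERB receptors read, and Per3 holds 2 copies of the D-box TTATGTAA, read by DBP, TEF, HLF and NFIL3.
Per1, chr11:69098759-69098838, plus strand: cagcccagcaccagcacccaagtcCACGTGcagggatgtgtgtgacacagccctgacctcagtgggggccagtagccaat
Cry1, chr10:85185095-85185154, minus strand: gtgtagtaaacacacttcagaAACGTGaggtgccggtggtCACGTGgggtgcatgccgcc
Nr1d1, chr11:98775378-98775437, minus strand: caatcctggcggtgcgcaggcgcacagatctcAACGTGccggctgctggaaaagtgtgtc
Nr1d2, chr14:18239154-18239213, minus strand: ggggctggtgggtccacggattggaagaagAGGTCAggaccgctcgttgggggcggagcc
Per3, chr4:151044806-151044880, minus strand: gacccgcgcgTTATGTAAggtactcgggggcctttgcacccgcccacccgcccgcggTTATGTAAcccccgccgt

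Both strands were searched, and none of the marked matches shares a base with another. Of all 32851 RefSeq windows of 300 bases, 7.15% held CACGTG, 4.68% held CACGTT, 0.938% held TTATGTAA and 16.3% held AGGTCA. Among the 9 matched genes CACGTG was in Per1 and Cry1, CACGTT in Cry1, Cry2 and Nr1d1, TTATGTAA in Per3, and AGGTCA in Arntl, Clock, Per1 and Nr1d2. Counted as windows, like the shares above, these were 2, 3, 1 and 4 of the 13. The 8-base cAMP response element TGACGTCA was in 1.79% of all windows and in 0 of the 9 genes. Its half-site TGACG was in 20.8% of all windows and in 4 of the 13 windows here, those of Per1, Cry1 and Cry2. A match describes the letters of a window and was not measured as a binding site.

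Libraries held 13561662 to 18619928 counts, with fewer in the males (at most 15165413) than in the females (at least 16743701), so sex and depth cannot be told apart. The targeted transcript Sik3 (chromosome 9, 46012820 to 46224194, plus strand) was at 147 ± 12.8 CPM across controls, against 86.2 ± 9.73 CPM across KO mice (SD, n = 4 each; CPM stands for counts per scaled library size, as edgeR computes it). Its log2 fold change was -0.77 ± 0.09 (SE; edgeR quasi-likelihood test, adjusted p = 0.0202). Dropping any of 4 mice ended that call: control 2 (-0.77, adjusted p = 0.108), control 3 (-0.80, 0.0866), KO 2 (-0.80, 0.0865) and KO 3 (-0.75, 0.242). All 8 CA1 pyramidal markers listed were tested and summed to 456 to 517 CPM across controls, against 481 to 511 CPM across KO mice, while dentate granule markers, also present, summed to 740 to 853 and 677 to 843 CPM. Avp and Six6, markers of the suprachiasmatic nucleus, the master clock of the brain, had 0 counts in all 8 libraries, which allows up to 0.221 CPM in the smallest (3 counts, counting error only). Of the other 3 markers in that list of 5, Prok2 was at 0 to 0.182 CPM, Vipr2 at 0.134 to 0.783 CPM and Rorb at 19.2 to 22.6 CPM.

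Levels of the 10 genes are compared here as CPM per kilobase of annotated exon. Nr1d2 was highest at 36.4 ± 3.14 CPM per kb (SD, n = 8), followed by Cry2 at 19.6 ± 1.12, and both stood above the gene below them in 8 of 8 libraries. Nr1d1 (14.2 ± 2.13), Clock (12.01 ± 0.98), Per3 (11.9 ± 0.96), Per2 (10.97 ± 1.13) and Per1 (9.14 ± 1.497) followed, and neighbours in that order had overlapping ranges. Clock was above Per3 in 4 of 8 libraries, so those levels had no order. Arntl (4.40 ± 0.17), Cry1 (4.15 ± 0.47) and Npas2 (2.76 ± 0.22) were lowest. Per1 was above Arntl, and Cry1 above Npas2, in 8 of 8 libraries, whereas Arntl was above Cry1 in 6. In each library the transcript of CLOCK thus exceeded that of its partner BMAL1 per length, since the range of Clock (10.8 to 13.3 CPM per kb) lay above that of Arntl (4.12 to 4.61).

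**Figure D1:**
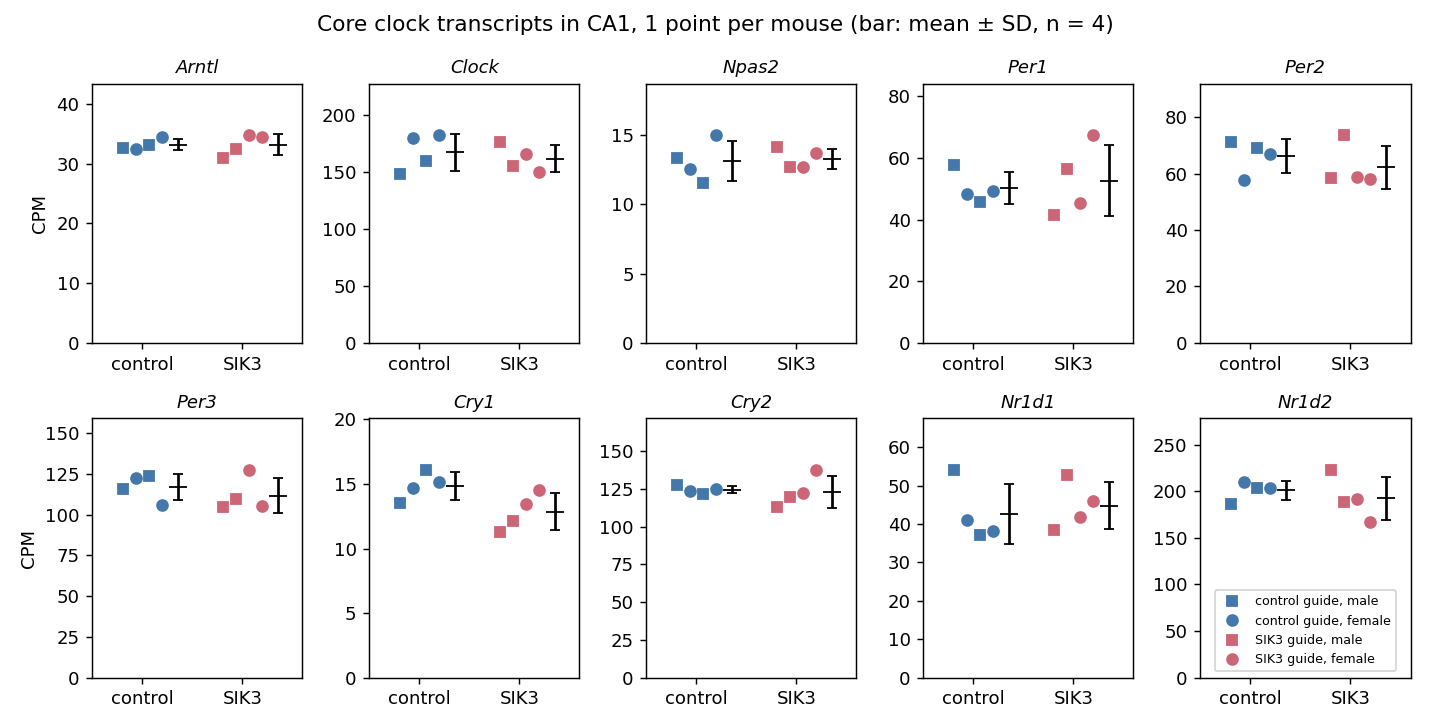
CPM of each of the 10 clock genes (vertical axes, from 0) in mice given the control guide or the SIK3 guide. Each point is 1 mouse, squares are males and circles females, and the bar beside each group is the mean ± SD (n = 4). The groups overlap for every gene; the lowest points of Cry1 are the KO males at 11.3 and 12.1 CPM.

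The first question was whether the SIK3 guide changed the clock genes. None of the 10 passed the edgeR test, 0 had an unadjusted p under 0.05, and the groups overlapped in CPM for all 10. Of all 14788 genes, 0.0135% passed at an adjusted p of 0.05, 2.81% had an unadjusted p under 0.05 and 1.74% had groups that did not overlap. DESeq2 and limma voom also called 0 of the 10. The log2 fold changes, KO over control, ran from -0.21 to 0.07 with a median of -0.033, against a median of 0.0036 over all genes, and 3 were positive and 7 negative. All edgeR adjusted p values were near 1 (0.9999). The 95% intervals of the 10 genes all lay between a fold of 0.747 and 1.28, so larger mean changes than these lie outside the intervals. Each mouse was sampled once, at a time of day that was not stated. The intervals therefore concern levels at dissection, and the phase and size of a daily rhythm were not measured. In tissue of many cell types, fewer cells of a type and less RNA per cell cannot be told apart.

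In the positive arm, Arntl (chromosome 7, 113207465 to 113314126, plus strand), which encodes BMAL1, was the steadiest gene. It was at 32.6, 32.4, 33.2 and 34.4 CPM across controls 1 to 4, against 31.0, 32.4, 34.7 and 34.5 CPM across KO 1 to 4. The means were the same within 1 SD, at 33.1 ± 0.918 and 33.1 ± 1.77 CPM (SD, n = 4 each), and the log2 fold change was -0.00048 ± 0.06 (SE; edgeR, 95% interval -0.14 to 0.14).

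Clock (chromosome 5, 76209868 to 76304792, minus strand), the partner of BMAL1, was at 148.5, 180, 160 and 182 CPM across controls 1 to 4, against 176, 156, 166 and 150 CPM across KO 1 to 4. Both groups spanned nearly the same range, and the log2 fold change was -0.046 ± 0.07 (SE; edgeR, unadjusted p = 0.547). Npas2 (chromosome 1, 39193731 to 39363236, plus strand), the forebrain paralog of Clock, was low, with 157 to 247 counts per library. It was at 13.4, 12.5, 11.6 and 14.98 CPM across controls, against 14.1, 12.7, 12.7 and 13.7 CPM across KO mice. Every KO value lay inside the range of the controls, and the log2 fold change was 0.020 ± 0.10 (SE; edgeR, 95% interval -0.20 to 0.24).

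Among the repressors, Cry1 (chromosome 10, 85131700 to 85185064, minus strand) came nearest to a difference. CRY1 is the strongest repressor of CLOCK and BMAL1, and its transcript peaks late, which places it with the positive arm in phase. It was at 13.5, 14.7, 16.1 and 15.2 CPM across controls 1 to 4, against 11.3, 12.1, 13.5 and 14.5 CPM across KO 1 to 4. Control 1 lay within the range of the KO mice, and KO 4 within that of the controls. The means were 14.8 ± 1.07 and 12.9 ± 1.44 CPM (SD, n = 4 each), and the log2 ratio was -0.21 ± 0.10 (SE; edgeR, unadjusted p = 0.0563, adjusted p = 0.9999; exact two-sided permutation p = 0.0571, where 4 against 4 allows 0.0286). The 95% interval was -0.42 to 0.0065. With 168 to 266 counts per library, counting error alone was up to 7.72% of a value.

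The difference of Cry1 was -0.34 ± 0.14 in males (edgeR, unadjusted p = 0.0328, adjusted p = 1) and -0.090 ± 0.13 in females (unadjusted p = 0.509), each 2 against 2. The interaction of sex and guide was 0.25 ± 0.19 for Cry1 (edgeR, unadjusted p = 0.224), so the sexes were not shown to differ. Across 17 other settings the log2 fold change of Cry1 stayed negative, from -0.34 to -0.13, and the adjusted p stayed at 0.546 or above; the unadjusted p was under 0.05 in 4 of the 18 settings. The weakest value, -0.13, came without control 3 and the strongest, -0.34, without both KO females.

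Cry2 (chromosome 2, 92403646 to 92434043, minus strand), the other cryptochrome, was at 128, 124, 122 and 125 CPM across controls, against 113, 119, 122.5 and 137 CPM across KO mice. The KO mice reached further on both sides, with an SD of 10.4 against 2.43 CPM, and the log2 fold change was -0.019 ± 0.06 (SE; edgeR, unadjusted p = 0.765). The difference in spread was not tested. Cry2 shares 295 exon bases, 4.67% of its exons, with D930015M05Rik on the opposite strand, and without a stated strand setting their reads there cannot be told apart.

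Per1 (chromosome 11, 69095217 to 69109960, plus strand), the PER gene with the E-box stretch shown above, varied most between mice. It was at 57.8, 48.4, 45.7 and 49.1 CPM across controls 1 to 4, against 41.6, 56.4, 45.3 and 67.3 CPM across KO 1 to 4. The lowest and the highest mouse were both KO, a 1.62-fold span, and the log2 fold change was 0.066 ± 0.13 (SE; edgeR, unadjusted p = 0.632). Without KO 4 it was -0.092.

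Per2 (chromosome 1, 91415982 to 91459324, minus strand), which sets the period together with Per1, was at 71.3, 57.8, 69.2 and 66.9 CPM across controls, against 58.4, 73.5, 58.8 and 58.2 CPM across KO mice. In the KO group 3 mice agreed closely and KO 2 stood apart. The log2 fold change was -0.092 ± 0.08 (SE; edgeR, unadjusted p = 0.264), and it ran from -0.16 without KO 2 to -0.029 without KO 1. Per3 (chromosome 4, 151003652 to 151044665, minus strand), a paralog that mice can lack and still keep a rhythm, was at 115, 123, 124 and 106 CPM across controls, against 105, 110, 127 and 105 CPM across KO mice. Its log2 fold change was -0.067 ± 0.08 (SE; edgeR, unadjusted p = 0.403), with ranges that nearly coincided.

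The REV-ERB genes form the stabilising loop. Nr1d1 (chromosome 11, 98767932 to 98775333, minus strand) was at 54.0, 41.1, 37.2 and 38.1 CPM across controls 1 to 4, against 38.5, 52.6, 41.8 and 46.0 CPM across KO 1 to 4. Control 1 and KO 2 were high, so each group held a high mouse, and the log2 fold change was 0.072 ± 0.12 (SE; edgeR, unadjusted p = 0.559). Nr1d1 shares 263 exon bases, 8.55% of its exons, with Thra on the opposite strand. Thra held 48436 counts over the 8 libraries, and reads in the shared bases cannot be assigned to one strand from the sources used here.

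Nr1d2 (chromosome 14, 18204054 to 18239127, minus strand), the most abundant clock gene per length, was at 187, 209, 204 and 204 CPM across controls, against 223, 189, 191 and 167 CPM across KO mice. As with Per1, the extremes were KO 1 and KO 4, but in the opposite order: KO 1 was highest and KO 4 lowest. The log2 fold change was -0.066 ± 0.08 (SE; edgeR, unadjusted p = 0.419).

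**Figure D2:**
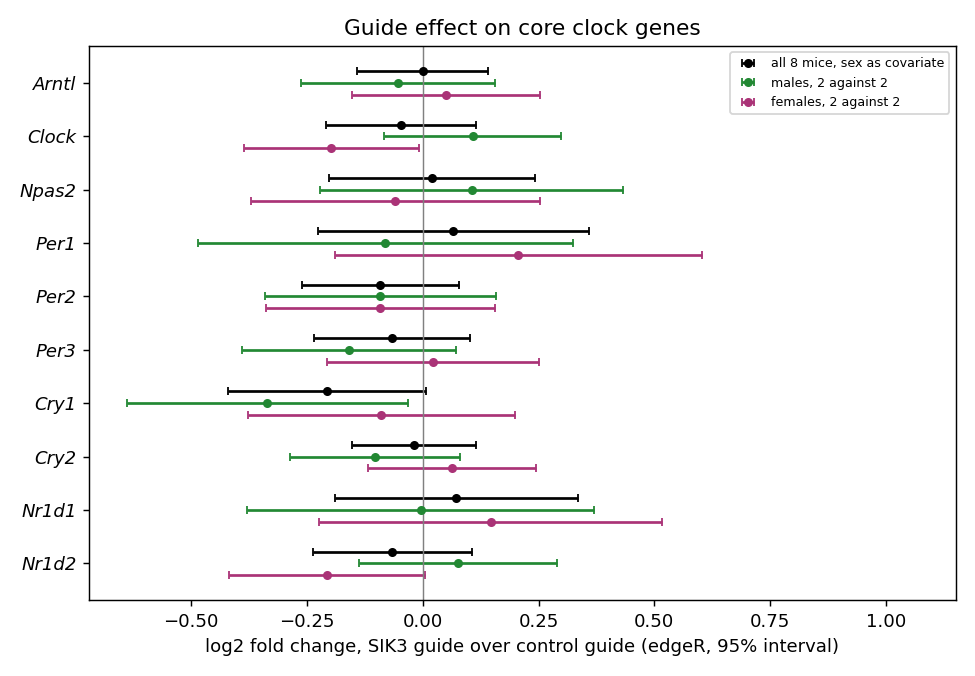
Log2 fold change of each clock gene, SIK3 guide over control guide, as points with 95% intervals from edgeR, for all 8 mice with sex as a covariate, for males and for females. With all 8 mice every interval includes 0; Cry1 in males and Clock in females have intervals on the negative side, with unadjusted p of 0.0328 and 0.0422.

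The second question was whether sex changed the clock genes or their response. Between the sexes 0 of the 10 passed edgeR (0.0609% of all genes passed, 6.05% had an unadjusted p under 0.05). The sexes overlapped in CPM for all 10 (they did not for 4.45% of all genes). Per2 was the gene under 0.05, with females at 60.4 ± 4.36 against 68.1 ± 6.69 CPM in males (SD, n = 4 each), with a log2 difference of -0.17 ± 0.08 (SE; edgeR, unadjusted p = 0.0474, adjusted p = 0.816). KO 1, a male, was at 58.4 CPM, within the range of the females. With DESeq2 the unadjusted p of Per2 was 0.0641 and with limma voom 0.0505.

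For the interaction of sex and guide 0 of the 10 passed edgeR (0.0% of all genes passed, 5.42% had an unadjusted p under 0.05). Clock had the smallest p. The males gave 0.11 ± 0.09 and the females -0.20 ± 0.09 on the log2 scale, a difference of -0.31 ± 0.12 (SE; edgeR, unadjusted p = 0.0293, adjusted p = 0.765). Nr1d2 went the same way, at 0.076 in males and -0.21 in females (interaction -0.28 ± 0.14, unadjusted p = 0.0631). Within females Clock had an unadjusted p of 0.0422 (7.11% of all genes were under 0.05, and 0.0406% passed), and within males Cry1 was the one under 0.05 (1.83% of all genes, and 0.0% passed). Adjusted p values were 0.661 and 1.

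The libraries of these mice also differed in a further property. The GC slope of a library is how log2 CPM changes with the GC content of transcripts over all tested genes. Per 10 percentage points it was -0.054 and -0.12 in the control females and 0.030 and 0.17 in the KO females. In the males it was 0.15 and -0.098 in controls 1 and 3, and -0.17 and 0.096 in KO 1 and 2. In females both KO mice lay above both controls, so a fit with the slope as covariate cannot tell slope and guide apart there. Clock and Nr1d2 have the lowest GC content of the 10, at 41.5% and 44.0%. With that slope as a covariate, the interaction was -0.15 ± 0.09 for Clock (SE; edgeR, unadjusted p = 0.105) and -0.089 ± 0.09 for Nr1d2 (unadjusted p = 0.362), while Nr1d1 moved from 0.15 ± 0.24 to -0.30 ± 0.13 (unadjusted p = 0.0331, adjusted p = 1).

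The third question was how the genes varied between mice and whether the arms moved against each other. After sex and guide were taken out, the SD of log2 CPM was 0.048 for Arntl, lower than in all but 3.81% of tested genes, and 0.26 for Per1, higher than in 78.5% of them. The median over all tested genes was 0.143, and only Per1 and Nr1d1 (0.23) of the 10 were above it. Arntl and Cry2 (18.3% of genes lower) were the low ones, and the other 6 lay a little below the median gene, with 40.1% to 48.3% of genes lower. Genes of all levels were ranked together, and counting error is larger at low counts, so these ranks also depend on level.

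Per1 and Nr1d1, both of the negative arm, varied together over the 8 mice (Pearson's r = 0.73, Spearman's rho = 0.62), and Clock and Nr1d2, of opposite arms, did so too (r = 0.78, rho = 0.86). Per1 and Nr1d2, both of the negative arm, went opposite ways (r = -0.89, rho = -0.79, exact permutation p = 0.00355 and 0.0279). Of the 45 pairs of genes 7 had an exact permutation p under 0.05 for r, and 0 passed after adjustment over the 45; the adjusted p of Per1 with Nr1d2 was 0.16 (0.419 for rho). Without the 2 mice farthest from the median of Per1, that r was -0.69. Each sex or group holds 4 mice, too few for a correlation of its own. By arm, r was positive in 4 of 6 pairs within the positive arm, in 4 of 10 within the negative arm and in 8 of 20 across the arms, with medians of 0.051, -0.071 and -0.061. A pattern by arm was therefore not seen in the signs of these pairs.

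**Figure D3:**
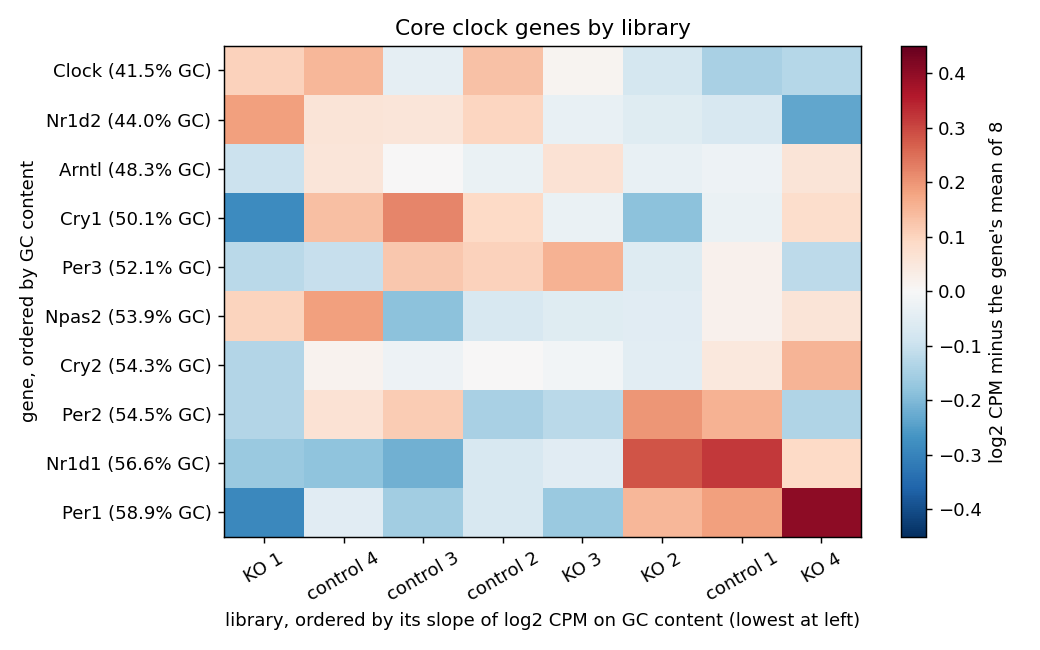
Log2 CPM of each clock gene minus its mean over 8 libraries (colour), with libraries ordered from left to right by GC slope and genes from top to bottom by GC content. Clock and Nr1d2 turn from high to low along the libraries and Nr1d1 and Per1 from low to high; Per1 spans -0.29 in KO 1 to 0.40 in KO 4.

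The same pairs lie at the ends of the GC scale. Per1 and Nr1d1 have the highest GC content of the 10, at 58.9% and 56.6%. Over the 8 libraries the slope ran from -0.17 in KO 1 to 0.17 in KO 4, with both signs in each group. Nr1d2 followed it most closely, inversely, with r = -0.91 and rho = -0.93 (exact permutation, adjusted p over 21 relations 0.0188 for r and 0.0469 for rho). Per1 had r = 0.87 (adjusted p = 0.0479, exact permutation), Nr1d1 0.86 (0.0493), Clock -0.84 (0.0863) and Cry2 0.69 (0.162). For Per1, Nr1d1 and Clock rho was 0.79, 0.83 and -0.81, each with an adjusted p of 0.117 by exact permutation. The slope is fitted to the log2 CPM of all tested genes, so genes of low or high GC content tend to follow it by construction. These p values therefore do not set the clock genes apart, and the share of other such genes that follow it is not given here.

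Without KO 4 and control 1, the libraries farthest from the median slope, r was -0.90 for Nr1d2, 0.87 for Nr1d1, 0.72 for Per1, -0.66 for Clock and 0.27 for Cry2, so the relation of Cry2 rested on those 2. The other 5 genes, with 48.3% to 54.5% GC, had r from -0.12 to 0.31. These relations were computed after the data were seen.

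**Figure D4:**
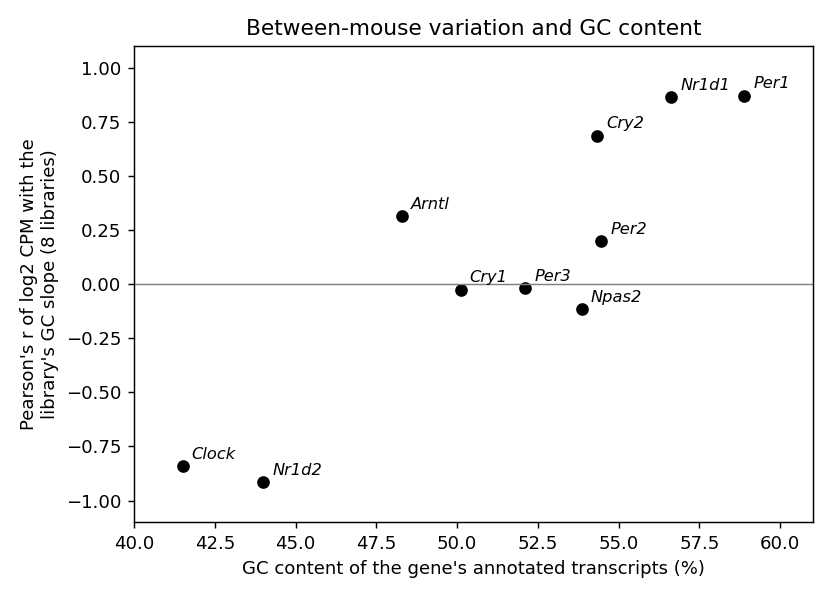
Pearson's r between a gene's log2 CPM and the library's GC slope over 8 libraries (vertical axis) against the GC content of the gene's annotated transcripts (horizontal axis), 1 point per clock gene. Clock and Nr1d2 lie at -0.84 and -0.91, Per1 and Nr1d1 at 0.87 and 0.86, and the genes of intermediate GC content between them.

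When each library's slope was subtracted according to the GC content of the gene, the SD over 8 libraries fell from 0.13 to 0.064 for Nr1d2, from 0.12 to 0.064 for Clock, from 0.23 to 0.14 for Per1 and from 0.21 to 0.14 for Nr1d1. It hardly moved for Per2 (0.15 and 0.15), Cry1 (0.17 and 0.17) and Per3 (0.12 and 0.12). It fell from 0.081 to 0.059 for Cry2 and went up from 0.057 to 0.067 for Arntl and from 0.115 to 0.131 for Npas2. Of the 45 pairs 2 then had an exact permutation p under 0.05, which were Arntl with Nr1d2 (r = -0.86) and Cry1 with Cry2 (r = 0.82), and 0 passed after adjustment. Clock with Nr1d2 went from 0.78 to -0.061, Per1 with Nr1d1 from 0.73 to 0.32, and Per1 with Nr1d2 from -0.89 to -0.67.

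The balance of the arms was taken per library as the mean log2 CPM of Arntl, Clock, Npas2 and Cry1 minus that of Per1, Per2, Per3, Nr1d1 and Nr1d2, with the control mean set to 0. It was -0.18, 0.030, -0.0031 and 0.16 in controls 1 to 4 and 0.043, -0.21, 0.023 and -0.0023 in KO 1 to 4. Control 1 and KO 2 were the lowest, with the positive arm low and the negative arm high. The KO mean was -0.036 ± 0.12 against 0 ± 0.14 in controls (SD, n = 4 each), a difference well inside the spread between mice. With Cry1 and Cry2 both counted in the negative arm the difference was 0.041, so the arm given to Cry1 set its sign. The positive arm alone differed by -0.058 and the negative arm by -0.022.

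The arms lay on opposite sides of their own means in 4 of 8 libraries (controls 1, 2 and 4, and KO 2). With the GC slope subtracted they did so in 7 of 8, all but KO 1, although the negative arm was close to its mean in controls 2 and 4 (-0.0006 and -0.0027) and the positive arm in KO 3 (0.0030). The KO mean of the balance was then -0.0062 from the control mean, and its SD over 8 libraries went from 0.12 to 0.091. By sex, the subtracted balance ran from -0.15 to -0.025 in males and from 0.020 to 0.11 in females and did not overlap, whereas as measured the ranges were -0.21 to 0.043 and -0.0023 to 0.16 and did overlap. The count of 7 and this split were seen after the values were known and are given without a test. Both were computed only with Cry1 in the positive arm and Cry2 in neither arm. With the slope subtracted, Cry1 itself was lowest in KO 1 and KO 2, both male (-0.28 and -0.18 from its mean over 8 libraries). Sex and depth cannot be told apart in these libraries.

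**Figure D5:**
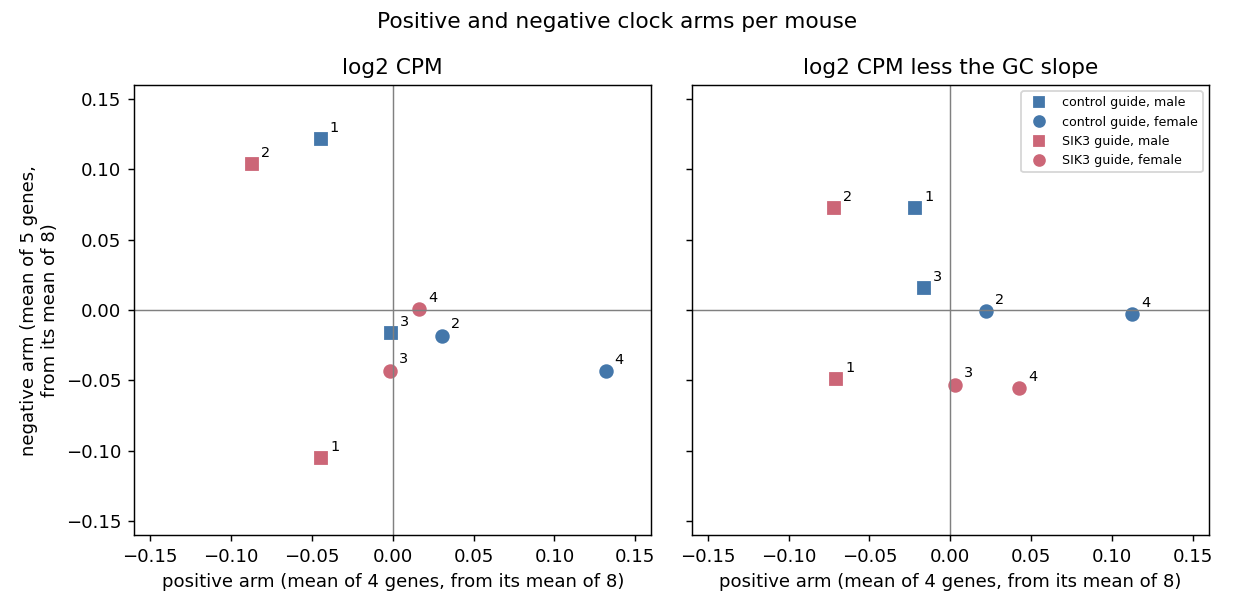
Mean log2 CPM of the negative arm (5 genes, vertical axis) against that of the positive arm (4 genes, horizontal axis) per mouse, each from its mean over 8, as measured (left) and with the library's GC slope subtracted (right). Numbers are mouse numbers within a group; 4 mice on the left and 7 on the right lie in the upper left or lower right quadrant.

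Genes around the core loop were taken from 4 lists with 42 genes, all tested. Of these 0 passed edgeR for the guide, 19 were positive and 23 negative with a median log2 fold change of -0.0033, and at an unadjusted p under 0.05 there were 2 higher and 3 lower. Over all genes 2.81% had such a p. Neither these lists nor those below were tested as sets, and they were chosen with earlier results of these data known. In the list of kinases and turnover of PER and CRY (17 genes, median -0.0022), the most abundant per kb were the casein kinase Csnk1a1 (log2 fold change -0.11 ± 0.07), the F-box gene Fbxw11 (-0.073 ± 0.05) and Ddb1 (0.0079 ± 0.05). Fbxl21, a cryptochrome ligase, had 0.43 ± 0.18 (edgeR, unadjusted p = 0.0364) at 3.35 ± 0.918 and 4.48 ± 0.769 CPM in controls and KO mice. Sik1, the SIK paralog of the light response, had 0.030 ± 0.21 for the guide and 0.48 ± 0.21 for females over males (edgeR, unadjusted p = 0.0437, adjusted p = 0.805).

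In the list of the ROR and REV-ERB loop (8 genes, median 0.015), the corepressor gene Ncor1 (0.041 ± 0.06), Hdac3 (-0.0030 ± 0.06) and Ppargc1a (-0.075 ± 0.09) were the most abundant per kb. Among paralogs and partners of the core (11 genes, median 0.011), the RNA-binding partners of PER, Sfpq (-0.019 ± 0.06) and Nono (0.011 ± 0.05), and the methyltransferase gene Kmt2a (0.028 ± 0.05) were the most abundant. Sirt1, a deacetylase that acts on BMAL1 and PER2, was at 36.7 ± 2.66 and 31.9 ± 1.97 CPM (-0.20 ± 0.08; edgeR, unadjusted p = 0.0185, adjusted p = 0.9999). Wdr5 had -0.20 ± 0.07 for females over males (edgeR, unadjusted p = 0.0127, adjusted p = 0.748).

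The output and E-box factors (6 genes, median -0.078, 1 positive) held 2 genes with an unadjusted p under 0.05 (2.81% of all genes), both with negative values. Bhlhe41, which competes for E-boxes, was at 40.6 ± 2.16 and 35.5 ± 2.09 CPM (-0.20 ± 0.07; edgeR, unadjusted p = 0.0186), and Hlf at 180 ± 5.78 and 165 ± 8.02 CPM (-0.12 ± 0.05; unadjusted p = 0.0347). Tef (-0.045 ± 0.05) and Bhlhe40 (-0.11 ± 0.09) had no such p. Dbp, a direct E-box target with a wide daily swing in many tissues, was at 12.5, 11.9, 11.6 and 9.21 CPM across controls 1 to 4, against 12.6, 12.2, 13.96 and 10.8 CPM across KO 1 to 4 (0.14 ± 0.12; edgeR, unadjusted p = 0.266). Its lowest mouse was control 4, the mouse with the highest arm balance. Its highest was KO 3, whose balance was 0.023, and over the 8 mice the r of Dbp with the balance was -0.48.

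Immediate early genes are switched on by neuronal activity. Relative to the controls, the mean log2 CPM of the 16 tested was -0.11, -0.23, 0.043 and 0.30 in controls 1 to 4 and -0.66, 0.25, -0.49 and 0.52 in KO 1 to 4, and Arc (-0.14 ± 0.31), Egr1 (-0.23 ± 0.21) and Nr4a3 (0.0066 ± 0.11) had no unadjusted p under 0.05 for the guide. Per1 was lowest in KO 1 and highest in KO 4, as was the mean of the 16, with r = 0.76 and rho = 0.79 (exact permutation, adjusted p = 0.121 and 0.117 over 21 relations). Single genes differed from the mean: Egr1 was lowest in KO 3 (52.5 CPM) and highest in control 4 (118 CPM), and Nr4a3 was lowest in control 1 (104 CPM) and highest in control 4 (141 CPM). Without KO 1 and KO 4 the r of Per1 was 0.39, so the relation rested on those mice. The other 9 clock genes had r from -0.65 for Nr1d2 to 0.69 for Cry2, with adjusted p of 0.162 or above by exact permutation. The part of neuronal activity in the spread of Per1 was not tested.

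Of 10 glucocorticoid-responsive genes, a list to which Per1 is related by its known hormone response, 0 passed edgeR and 1 was positive, with a median of -0.15. Of these, 3 had an unadjusted p under 0.05 (2.81% of all genes did), which were Sgk1 (-0.42 ± 0.14, unadjusted p = 0.0102), Tsc22d3 (-0.28 ± 0.11, 0.0221) and Zbtb16 (0.15 ± 0.06, 0.0294). Zbtb16 also had one for females over males (-0.16 ± 0.06, unadjusted p = 0.0201, edgeR). Mt2 (-0.13 ± 0.22) and Errfi1 (-0.13 ± 0.11) had no such p. Of 8 temperature-responsive genes 0 had an unadjusted p under 0.05, with Hsp90aa1 at -0.039 ± 0.06, Hspa8 at -0.029 ± 0.06 and Hsph1 at -0.012 ± 0.07. All 6 CREB and CRTC genes were positive with a median of 0.078 and 0 passed; Crem had 0.25 ± 0.10 (edgeR, unadjusted p = 0.0327), Crtc1 0.10 ± 0.08, Crtc2 0.040 ± 0.08 and Creb1 0.0048 ± 0.07.

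Outside these lists, the genes whose log2 CPM was most like the arm balance over 8 libraries were Slc26a8 (Pearson's r = 0.98), Mindy2 (0.97), Tnrc6a (0.96), Dhx57 (0.95) and Lhfpl1 (0.95). The most opposite were Bicd2 (-0.97), Dcxr (-0.97), Camkk1 (-0.97), Mrps35 (-0.96) and Secisbp2 (-0.96). These are the extremes of 14788 genes over 8 points that share their depth and GC slope, and they are given as a description. Of the clock genes themselves, which make up the balance, Nr1d1 (-0.88) and Clock (0.76) followed it most closely, and Nr1d2, a member of the negative arm, was on the side of the positive arm at 0.40.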

How the data were processed

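The authors deposited raw read counts per Ensembl gene, 1 file per mouse. The tools named, without their order, are HTSeq 2.0.1, TopHat2 2.1.1 and Trimmomatic 0.33, with build mm10 (per the submitters' processing notes); per the labels' protocols, libraries came from a TruSeq stranded mRNA kit. The strand setting and annotation: not given in the sources used here. Symbols matched 35449 of 37315 identifiers; positions, exon lengths and GC content came from GENCODE on GRCm38.

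Tests on counts used edgeR 4.0.16 (R 4.3.3) with TMM factors (filterByExpr with a minimum count of 10, quasi-likelihood F test, sex as covariate, Benjamini-Hochberg over 14788 genes, threshold 0.05). The sex effect came from the same fit as the guide effect. The interaction and the guide contrasts within each sex used a model of 4 cells of 2 mice. Log2 CPM used a prior count of 2. Depth (13561662 to 18619928 counts a library) limits Npas2 and Cry1 most. Alternatives were DESeq2 1.42.0, limma 3.58.1 voom, other scalings and filters, the GC slope as covariate, and leaving out libraries; subtraction of the GC slope, and that slope as covariate for contrasts by sex, were added after seeing the data. The fit was also run on simulated data, whose outcome is not given here and is not used as support for any result. Named genes were Sik3, the 10 members, list genes with an unadjusted p under 0.05 or among the 3 highest per kb, and the 5 most and least like the arm balance. Members and lists were chosen with earlier results of these data known. A series table of 8 columns was not used. The values of 1 list gene that the rule would name are not reported here.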

Additional observations from a re-analysis of the deposited data

Results flagged for a closer look

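Per2 in the KO group was flagged because 1 mouse stood far from the other 3: KO 2 was at 73.5 CPM and the others at 58.2 to 58.8, so the gap was 0.961 of the group's range. The negative arm in controls was flagged for the same reason, with control 1 at 0.11 and the others at -0.054 to -0.027 (0.836 of the range). Both are past Dixon's 95% limit for 4 samples. In all, 28 sets of 4 values were checked, and chance alone flags about 1 in 20.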

How the results depend on the processing

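The number of clock genes called was 0 for the guide, for sex, for the interaction and within each sex under every setting run. No paired analysis was possible because the numbers of the mice in the labels differ between the groups and pair no animals. Depth limits Cry1 and Npas2, and the intervals assume that 4 mice a group show the spread.

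Counts over all genes depended on the setting, and causes were not tested. With no filter on low counts, where more genes are tested, there were 84 calls for the guide, 112 for sex, 100 for the interaction, 275 within females and 20 within males. DESeq2 gave 18, 2, 18 and 3 for sex, the interaction, females and males. With the GC slope as covariate sex gave 42 calls and males 2. Leaving out 1 library gave 0 to 2 for the guide, 7 to 13 for sex, 0 to 1 for the interaction, 0 to 21 within females and 0 to 1 within males.

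The number of gene pairs past the adjusted p was 5 with residuals after sex and guide (Clock with Cry2 and with Nr1d2, Per1 with Cry2 and with Nr1d2, Cry2 with Nr1d2), and 0 to 1 when 1 library was left out. Residuals of 8 libraries from that fit keep 5 degrees of freedom and are not freely exchangeable. Their permutation p values can be too small, and the 5 pairs are not read as a result. The arm balance ran from -0.098 to 0.021 when 1 library was left out and was 0.041 with Cry1 and Cry2 in the negative arm.

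Fold changes near 0 turned sign. Arntl was at 0.0016 with upper quartile scaling, 0.00079 with no filter, 0.00024 with a mean CPM of at least 1, 0.0021 with limma voom and 0.00040 with no covariate. With the GC slope as covariate Clock was at 0.00087, Per1 at -0.048 and Nr1d1 at -0.019, and without both KO females Per1 was at -0.037 and Nr1d2 at 0.034. Leaving out 1 library gave -0.029 to 0.022 for Arntl, -0.11 to 0.010 for Clock, -0.034 to 0.092 for Npas2, -0.092 to 0.17 for Per1, -0.072 to 0.014 for Cry2, -0.012 to 0.19 for Nr1d1, -0.16 to -0.029 for Per2, -0.14 to -0.028 for Per3 and -0.14 to -0.0011 for Nr1d2. Per2, Per3 and Cry1 stayed negative in all 17 alternatives.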

Other observations

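With the GC slope as covariate, 3 clock genes had an unadjusted p under 0.05 between the sexes, a count seen after the fit was run: Per2 (log2 difference, female over male, -0.17 ± 0.06; edgeR, unadjusted p = 0.0151), Nr1d1 (-0.13 ± 0.06, 0.048) and Clock (0.092 ± 0.04, 0.0312). In the same fit 1952 of all 14788 genes had such a p and 42 passed. None of the 3 passed (adjusted p of 0.258 to 0.374). Sex and depth cannot be told apart in these libraries.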
